A study of Ovis aries with 2 samples.

Results

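The levels of 9 genes of blood vessel growth and vessel identity were followed through the dissociated anterior pituitary of the sheep. They comprised the ligand genes VEGFA, PGF, ANGPT1 and ANGPT2, the receptor genes KDR, FLT1, TEK and NRP1, and PLVAP, a gene of the vessel wall. All 9 of these genes were found among the 23141 listed genes. In the deposited gene list 8 carried their symbol, and PLVAP was listed under the placeholder LOC101111878 and found through its NCBI Gene ID, 101111878. The samples were pituitaries of Hu sheep, a sheep breed, aged 3 months and 6 months, in a study of the gland around puberty. Each age had 1 single-cell library, and no other treatment or genotype was labelled. How many animals of which sex went into a library is not given in the labels, so age, animal and library cannot be told apart.

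VEGFA encodes the main growth factor of blood vessels, and PGF encodes placental growth factor, a relative of it. VEGFA binds the receptor tyrosine kinases encoded by KDR and FLT1, whereas PGF binds FLT1 and not KDR. FLT1 binds VEGFA tightly but signals weakly, and it can act as a trap for the ligand. NRP1 encodes neuropilin, a co-receptor for VEGFA and for semaphorins that is also made by cells outside vessels. ANGPT1 and ANGPT2 encode angiopoietins that bind TEK, also called TIE2. ANGPT1, usually made by cells around vessels, activates TEK and steadies the vessel wall, and ANGPT2, usually made by endothelial cells themselves, can oppose it. PLVAP forms the diaphragms across the pores of fenestrated capillaries, the kind of capillary through which anterior pituitary hormones reach the blood.

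After filtering, 15446 cells of the 3-month library and 12683 cells of the 6-month library were analysed, with median depths of 5022.5 and 9156 UMIs. A UMI is 1 counted transcript molecule. Cells were clustered without the 9 genes and without the related gene lists described below, and clusters were named from other markers. The classes held, at 3 and 6 months, 1874 and 435 endothelial-like, 1277 and 1309 macrophage-like, 110 and 1006 T or NK-like, 5589 and 2470 stem or folliculostellate-like, 1175 and 263 gonadotroph-like, 2396 and 5347 lactotroph-like, and 1293 and 496 somatotroph-like cells. Smaller groups were 213 and 6 corticotroph-like and 19 and 145 B or plasma-like cells, together with a stromal cluster of 144 and 29 cells that carried 8 mural and 6 fibroblast markers and was given neither name. PRL, the prolactin gene, made up 2.25% and 6.07% of the UMIs of endothelial, T or NK and B or plasma-like cells, which should lack it, against 21.7% and 34.8% over all cells. This gives free RNA shares of 10.4% and 17.4%, from which the level that free RNA would bring was computed for each gene. The share depends on the cells that give it. An endothelial sub-cluster led by GH and PRL is among them, and without it and the other sub-clusters led by genes of other classes, endothelial-like cells alone had PRL at 1.13% and 1.31% of UMIs, which gives shares of 5.20% and 3.77%. T or NK-like cells alone gave 5.64% and 12.4%, and B or plasma-like cells 2.88% and 27.1%. The levels from the first and from the endothelial shares are called the higher and the lower free RNA level below. The libraries shared 81 barcodes, 56 of them among the cells kept. A single library at each age allows no test. Intervals are exact 95% intervals that cover counting error only, and each difference separates these libraries, not necessarily the ages. Levels are given as CPM, the UMIs of a gene in each 1000000 UMIs of the class.

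VEGFA was highest in macrophage-like cells at both ages. Its level there was 370 CPM (95% Poisson interval 354 to 386) at 3 months and 432 (417 to 447) at 6 months. Stem or folliculostellate-like cells had 75.3 (72.5 to 78.3) and 122 (117 to 126) CPM. Gonadotroph-like cells, which make the gonadotropins LH and FSH, stood at 53.1 (49.4 to 57.0) and 132 (122 to 143). Macrophage-like cells stood clear of the other classes, whereas the intervals of stem or folliculostellate-like and gonadotroph-like cells overlapped at 6 months. Lactotroph-like cells, with 1.33 and 1.76 CPM, and somatotroph-like cells, with 1.91 and 4.21, lay below the higher free RNA levels of 4.81 and 8.68. Against the lower ones, 2.41 and 1.88, somatotroph-like cells at 6 months lay above. Corticotroph-like cells had 29.3 CPM at 3 months, from 24 UMIs.

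The VEGFA transcripts of the preparation came mostly from cells that make no hormone. Macrophage-like and stem or folliculostellate-like cells together held 81.2% of all VEGFA UMIs at 3 months (4775 of 5877, exact 95% interval 80.2 to 82.2%) and 80.3% at 6 months (6380 of 7950, 79.4 to 81.1%). Macrophage-like cells alone held 36.1% and 39.5%, although they were 8.27% and 10.3% of the cells. Gonadotroph-like cells held 12.9% and 7.87%. After each cell was thinned to 2000 UMIs, 34.2% and 38.8% of macrophage-like cells carried a VEGFA UMI, against 0.256% and 0.553% of lactotroph-like cells. Thinning left out cells of lower depth, 97 and 44 of the macrophage-like and 56 and 102 of the lactotroph-like cells. Without it the shares were 45.5% and 55.2% against 2.30% and 2.92%, at median depths of 3864 and 4938 UMIs against 18158.5 and 17234.

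**Figure D1:**
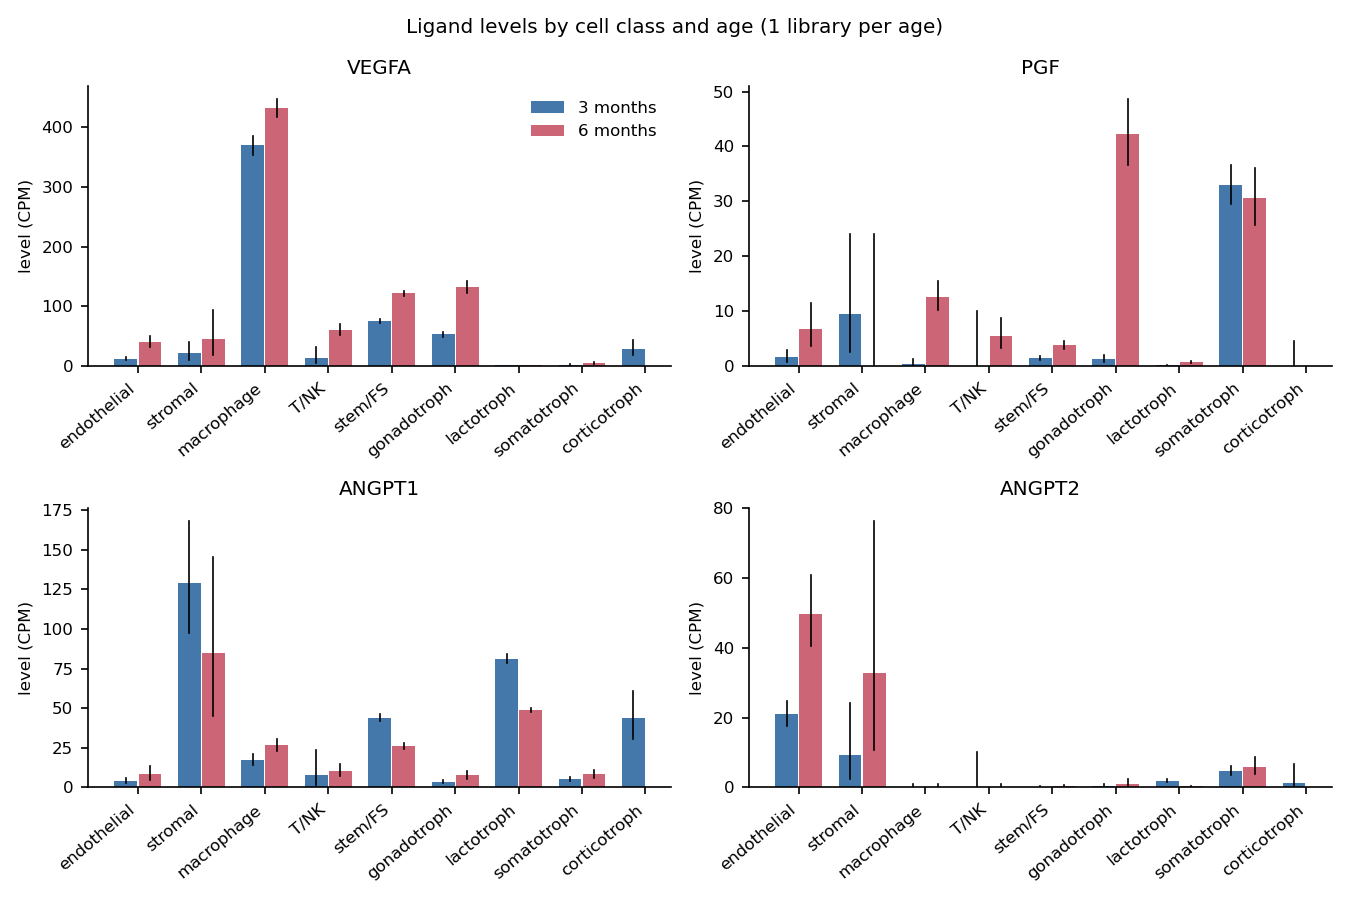
Levels of the 4 ligand genes in CPM (y axis, a linear scale of its own for each gene) by cell class (x axis), with blue bars for the 3-month and red bars for the 6-month library and black lines for 95% Poisson intervals. VEGFA is highest in macrophages, ANGPT1 in the stromal cluster and lactotrophs and ANGPT2 in endothelial cells, while PGF is at 32.9 and 30.6 in somatotrophs and at 42.3 in gonadotrophs at 6 months. Corticotrophs are shown at 3 months alone because the other library held 6 of them.

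The difference in VEGFA between the libraries was not the same in each class. The log2 ratio of the 6-month over the 3-month library was 0.22 (0.14 to 0.30) in macrophage-like cells and 0.69 (0.62 to 0.76) in stem or folliculostellate-like cells. It was 1.32 (1.16 to 1.47) in gonadotroph-like cells, 1.73 (1.26 to 2.20) in endothelial-like cells and 2.16 (0.91 to 3.80) in T or NK-like cells. The endothelial value rested on 78 UMIs in each library and the T or NK value on 5 and 197 UMIs. Their 6-month levels, 40.0 and 60.6 CPM, were above the higher free RNA level of 8.68. The 3-month levels were 12.1 and 13.6, against 4.81.

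The clusters that made up these classes were not the same at both ages. Macrophage-like cells were mostly of cluster 4 at 3 months (1215 cells, VEGFA at 385 CPM) and of cluster 9 at 6 months (1032 cells, 509). A smaller macrophage-like group, cluster 23, had 181 and 197 CPM in 38 and 233 cells. Without cluster 23 the log2 ratio of VEGFA in the class was 0.40 (0.32 to 0.48), a choice added after the data were seen. Among stem or folliculostellate-like cells, clusters 2 and 7 had 65.7 and 90.7 CPM at 3 months, and cluster 22, which held 82.0% of the class at 6 months, had 126. Within cluster 22 the 235 cells of the 3-month library had 60.7.

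In gonadotroph-like cells the difference in VEGFA went with a cluster found mainly at 6 months. Cluster 13, led by FSHB and MSMB, had VEGFA at 57.9 CPM in 857 cells at 3 months and 57.5 in 78 cells at 6 months, on UMI totals. Cluster 27, led by IGFBP1, NPPC and DDIT4L, had 160 in 153 cells at 6 months. In the 26 cells of cluster 27 at 3 months, a group with a median of 2020 UMIs against 23096 at 6 months, it was 292 (178.5 to 451) from 20 UMIs. Without cluster 27 the log2 ratio of VEGFA in the class was 0.17 (-0.16 to 0.48), and in cluster 13 alone it was 0.16 (-0.18 to 0.48), and both intervals include 0. Both ratios kept the scaling factors of the whole class (TMM, 1.06 at 3 months and 0.944 at 6 months). The cluster levels above are on UMI totals without these factors.

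PGF was the ligand whose source differed most between the libraries. At 3 months it stood at 32.9 CPM (29.4 to 36.7) in somatotroph-like cells, the growth hormone cells, which held 76.1% of its 431 UMIs. At 6 months somatotroph-like cells had 30.6 (25.7 to 36.1), but held 20% of 690 UMIs. The class itself was 8.37% of cells at 3 months and 3.91% at 6 months. The log2 ratio of the level was -0.11 (-0.40 to 0.19), an interval that includes 0, and it was 0.11 on UMI totals and 0.0776 on totals without hormone genes.

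Gonadotroph-like cells had PGF at 1.33 CPM (0.798 to 2.07) at 3 months, from 19 UMIs in 1175 cells, and at 42.3 (36.6 to 48.6) at 6 months, from 200 UMIs in 263 cells. The intervals were far apart. The log2 ratio was 5.00 (4.32 to 5.76), and gonadotroph-like cells held 4.41% of PGF UMIs at 3 months and 29.0% at 6 months. Nearly all of these UMIs were in cluster 13, where PGF was 1.49 CPM at 3 months and 124.9 (107.8 to 143.9) at 6 months. There 56 of 78 cells carried at least 1 PGF UMI, so a few cells did not make up the level. Cluster 27, the IGFBP1-led gonadotroph cluster, had 5 PGF UMIs in 153 cells. PGF and VEGFA were thus high in different gonadotroph clusters of the 6-month library, PGF in cluster 13 and VEGFA in cluster 27.

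Macrophage-like cells had PGF at 0.349 CPM at 3 months, from 2 UMIs in 1277 cells, and at 12.6 (10.2 to 15.5) at 6 months, from 92 UMIs in 1309 cells. All 92 were in cluster 9, in 45 of its 1032 cells. Stem or folliculostellate-like cells had 1.42 and 3.75 CPM, a log2 ratio of 1.40 (0.90 to 1.92). On UMI totals their level at 6 months was 0.874 times that over all cells. At both ages it lay above the higher free RNA levels of PGF, 0.353 and 0.754. PGF was sparse throughout: after thinning to 2000 UMIs it was found in 10.6% of gonadotroph-like, 3.74% of somatotroph-like and 1.98% of macrophage-like cells at 6 months (23.6%, 16.5% and 3.44% without thinning).

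ANGPT1 was held mainly by lactotroph-like cells, the prolactin cells. They had 81.4 CPM (78.7 to 84.1) at 3 months and 48.8 (47.4 to 50.1) at 6 months, and held 62.9% (3556 of 5650, 61.7 to 64.2%) and 79.4% (5184 of 6531, 78.4 to 80.4%) of its UMIs. The level was lower at 6 months while the share was higher, in a class that made up 15.5% and 42.2% of the cells. The log2 ratio was -0.74 (-0.80 to -0.68). Different clusters made up the class, cluster 8 at 3 months with ANGPT1 at 80.1 CPM and clusters 15 and 20 at 6 months with 52.8 and 65.0. Cluster levels are on UMI totals, unlike the class levels. Cluster 20, which had 235 cells at 3 months, had 82.3 there.

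Stem or folliculostellate-like cells were the other large source of ANGPT1, with 44.1 CPM (41.9 to 46.3) at 3 months and 26.0 (24.1 to 28.0) at 6 months. The log2 ratio, -0.76 (-0.89 to -0.63), was near that of lactotroph-like cells on TMM sizes. The TMM factors were 0.944 and 1.06 in lactotroph-like cells and 0.994 and 1.01 in stem or folliculostellate-like cells. On UMI totals the lactotroph ratio is thus less negative, while the stem or folliculostellate ratio changes little. The share of ANGPT1 UMIs in stem or folliculostellate-like cells was 27.5% and 10.6%. Macrophage-like cells had less and went the other way, with 17.1 and 26.6 CPM and a log2 ratio of 0.64 (0.28 to 1.01). Without cluster 23 it was 0.84 (0.48 to 1.21). Gonadotroph-like cells had 3.56 and 7.61, between the lower and higher free RNA levels of 2.32 and 4.63 at 3 months and above both, 1.54 and 7.13, at 6 months.

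By level, the highest ANGPT1 value was that of the stromal cluster at 3 months, 129 CPM (97.4 to 168) from 55 UMIs. At 6 months it had 85.0 (45.3 to 145) from 13 UMIs in 29 cells, too few for a ratio. Its 3-month cells were divided further, a step added after the data were seen. A group of 43 cells led by RND1 and RGS16 had ANGPT1 at 138 CPM (80.5 to 221), another 43 cells led by HIGD1B and ITGA7 had 97.9 (39.4 to 202), and 44 cells led by PLVAP, SFRP4 and COL14A1 had 204 (137 to 293). These intervals overlapped. The cluster held 0.973% and 0.199% of all ANGPT1 UMIs, so its cells were high but few. An unnamed cluster led by PEG3 and DIO2, cluster 1, had ANGPT1 at 124 and 82.5 CPM in 293 and 434 cells. Corticotroph-like cells had 43.9 (30.7 to 60.8) at 3 months.

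ANGPT2 was the ligand with its highest level in endothelial cells. Endothelial-like cells had 21.04 CPM (17.6 to 24.9) at 3 months and 49.8 (40.4 to 60.7) at 6 months, and held 46.1% of 295 and 51.3% of 189 UMIs. The intervals did not overlap, and the log2 ratio was 1.24 (0.85 to 1.63). The stromal cluster had 9.40 from 4 UMIs and 32.7 from 5 UMIs. Somatotroph-like cells had a low level, 4.72 (3.46 to 6.27) and 5.98 (3.94 to 8.70), above the higher free RNA levels of 0.242 and 0.206. Lactotroph-like cells had 1.92 (1.53 to 2.38) and 0.357 (0.253 to 0.491), a log2 ratio of -2.43 (-3.02 to -1.86), and after thinning 0.171% and 0.0763% of these cells carried a UMI of it (3.30% and 0.692% without thinning).

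**Figure D2:**
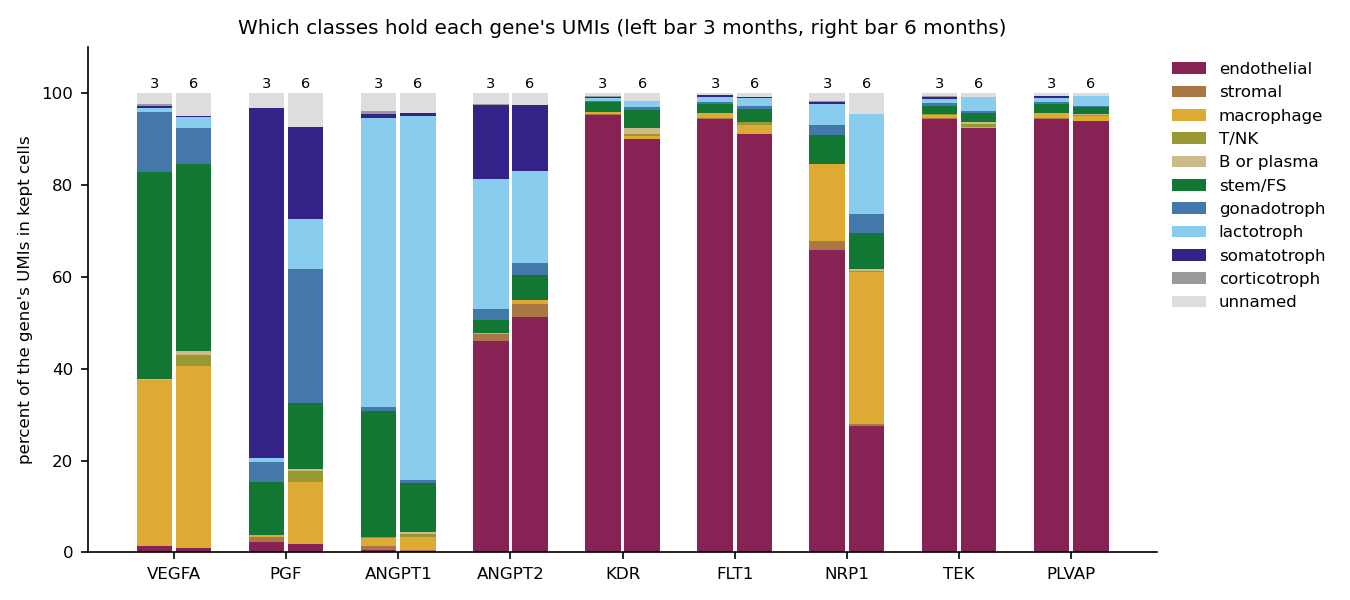
Share of each gene's UMIs (y axis, percent of the UMIs in kept cells) held by each cell class (colours), with the left bar of each pair for the 3-month and the right bar for the 6-month library. KDR, FLT1, TEK and PLVAP lie almost wholly in endothelial cells, NRP1 is shared with macrophages and lactotrophs, and the ligands lie mostly elsewhere: VEGFA in macrophages and stem or folliculostellate cells, ANGPT1 in lactotrophs, and PGF in somatotrophs at 3 months and in several classes at 6 months.

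KDR, the main signalling receptor for VEGFA, lay almost wholly in endothelial-like cells, which held 95.2% of its 7082 UMIs at 3 months and 90.0% of 1372 at 6 months. Its level there was 1043 CPM (1018 to 1068) at 3 months and 634 (599 to 670) at 6 months, a log2 ratio of -0.72 (-0.81 to -0.63). After thinning, 81.0% (1376 cells deep enough) and 66.3% (356 cells) of endothelial-like cells carried a KDR UMI, against 0% and 0.358% of T or NK-like cells. Without thinning the shares were 87.6% and 78.9% against 1.82% and 0.497%, at median depths of 2752.5 and 3303 UMIs in endothelial-like and 2387 and 2734.5 in T or NK-like cells. By the rule that a count of 0 allows up to 3 counts, the 0 of 82 T or NK-like cells at 3 months allows a share of up to 3.66%. No other named class of at least 50 cells in each library reached 6 CPM, and the free RNA level was 2.90 to 5.80 at 3 months and 0.324 to 1.499 at 6 months. Of the smaller groups, the stromal cluster had 40.0 from 17 UMIs at 3 months and 0 UMIs at 6 months. The 44 stromal cells led by PLVAP, SFRP4 and COL14A1 held 14 of the 17, in 11.4% of these cells. With both libraries pooled, this group carried 4 endothelial markers beside 8 mural and 6 fibroblast ones. Whether endothelial cells are among them was not tested. B or plasma-like cells had 14.7 from 3 UMIs and 6.94 from 19, and corticotroph-like cells 6.10 from 5 UMIs at 3 months. Over all cells KDR stood at 55.8 and 8.59 CPM, with endothelial-like cells at 12.1% and 3.43% of the cells.

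FLT1, the receptor shared by VEGFA and PGF, also lay in endothelial-like cells, with 94.3% of 2130 and 91.2% of 995 UMIs. It went the other way: 311 CPM (297 to 324) at 3 months and 465 (436 to 497) at 6 months, a log2 ratio of 0.58 (0.47 to 0.70). The thinned share of endothelial-like cells with a UMI was 43.5% and 52.5% (56.2% and 69.0% without thinning). This difference was not shared by the larger endothelial cluster, as described below. Macrophage-like cells had 4.36 and 2.61 CPM, against higher free RNA levels of 1.74 and 1.09.

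TEK, the angiopoietin receptor, followed KDR. Endothelial-like cells held 94.4% and 92.3% of its UMIs, at 788 CPM (767 to 810) at 3 months and 471.5 (441.5 to 503) at 6 months. The log2 ratio was -0.74 (-0.84 to -0.64), and the thinned share of cells with a UMI was 74.7% and 62.9% (83.1% and 76.6% without thinning). Every other named class of at least 50 cells in each library was under 10 CPM. The stromal cluster had 30.6 from 13 UMIs at 3 months and 0 UMIs at 6 months. Its cells led by PLVAP, SFRP4 and COL14A1, the group with 4 endothelial markers, held 12 of the 13. The cells that held most ANGPT1 UMIs, lactotroph-like cells, had TEK at 1.08 and 0.292, below the higher free RNA levels of 4.42 and 1.09. The lower ones were 2.21 and 0.235.

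NRP1 was the receptor with sources outside the vessels. Endothelial-like cells had the highest level, 481 CPM (464 to 498) at 3 months and 309 (285 to 335) at 6 months, a log2 ratio of -0.64 (-0.76 to -0.51). The stromal cluster had 214 (172 to 263) at 3 months and 52.3 from 8 UMIs at 6 months. Macrophage-like cells had 137 (128 to 147) and 99.6 (92.5 to 107), with a UMI in 21.6% and 18.3% of cells after thinning (36.8% and 35.4% without). Their log2 ratio was -0.47 (-0.61 to -0.32). Without cluster 23, which had 38 and 233 cells, it was -0.18 (-0.33 to -0.03), a choice added after the data were seen.

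The share of NRP1 UMIs in endothelial-like cells was 65.9% of 4713 at 3 months and 27.5% of 2190 at 6 months. Macrophage-like cells held 16.7% and 33.1% and lactotroph-like cells 4.54% and 21.7%. The lactotroph level was 4.90 and 4.47 CPM, with a log2 ratio of -0.13 (-0.37 to 0.11) that includes 0, and lay above the higher free RNA levels of 3.86 and 2.39. In gonadotroph-like cells NRP1 was 7.74 and 19.5 CPM, a log2 ratio of 1.33 (0.91 to 1.74). Cluster 27 had 22.5 there at 6 months, and in cluster 13 alone the log2 ratio was 0.54 (-0.29 to 1.29).

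PLVAP, the diaphragm gene, was found in nearly every endothelial-like cell, 99.9% and 99.4% after thinning to 2000 UMIs and 99.7% and 100% without. Its level was 5892 CPM (5833 to 5951) at 3 months and 5529 (5425 to 5634) at 6 months, and the log2 ratio was -0.09 (-0.12 to -0.06). Endothelial-like cells held 94.3% of 40380 and 93.9% of 11470 UMIs. Outside them PLVAP was lower at 6 months in each of the 5 named classes with at least 100 UMIs, for example 72.8 and 15.2 CPM in macrophage-like cells and 20.9 and 6.57 in stem or folliculostellate-like cells. The stromal cluster had 261 CPM (215 to 314) from 111 UMIs in 17 of 144 cells at 3 months and 0 UMIs in 29 cells at 6 months. The higher free RNA levels were 33.1 and 12.5 and the lower ones 16.6 and 2.71, and PLVAP over all cells was 318 and 71.8. The part of free RNA in these differences was not tested.

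**Figure D3:**
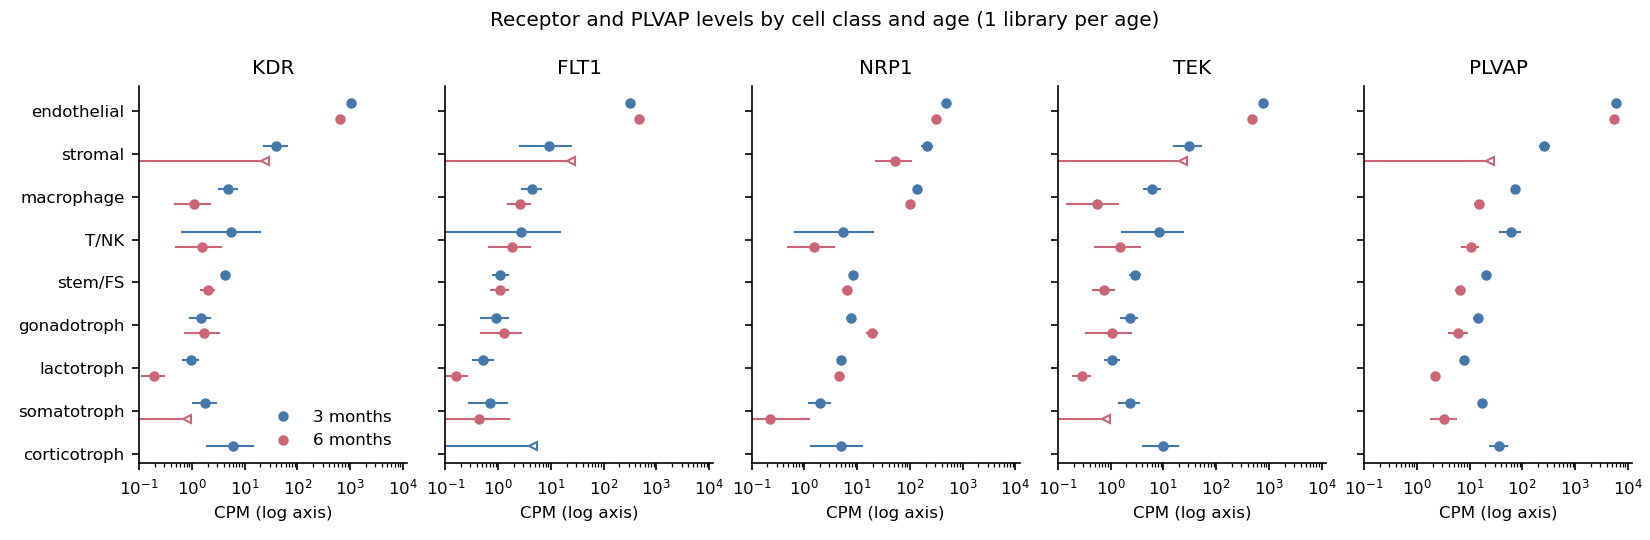
Levels of the 4 receptor genes and PLVAP in CPM (x axis, log scale, with intervals that reach lower drawn to 0.1) by cell class (rows), with blue for the 3-month and red for the 6-month library and lines for 95% Poisson intervals. Open triangles mark the upper limit where no UMI was counted. Endothelial cells lie far to the right for all 5 genes. Of the 4 receptor genes NRP1 alone has further classes above 50, the stromal cluster and macrophages, and PLVAP reaches 261 in the stromal cluster at 3 months.

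At the level of the whole class, 7 of the 9 genes had at least 100 UMIs in endothelial-like cells. Of these, VEGFA and ANGPT2 were at least 2-fold higher at 6 months, none was 2-fold lower, and KDR, FLT1, TEK, NRP1 and PLVAP were under 2-fold. Over all 7836 genes with 100 UMIs in this class, 6.14% were at least 2-fold apart in either direction. In gonadotroph-like cells 4 of the 9 genes had enough UMIs. All 4 were 2-fold apart, with VEGFA, PGF and NRP1 higher and PLVAP lower, against 9.31% of all genes. PLVAP stood at 14.2 and 6.13 CPM there, below the higher free RNA levels of 33.1 and 12.5. Against the lower ones, 16.6 and 2.71, it lay below at 3 months and above at 6 months. In cluster 13 alone the log2 ratio was 6.55 for PGF, and the intervals of VEGFA, -0.18 to 0.48, and NRP1, -0.29 to 1.29, included 0. In stem or folliculostellate-like cells 7 genes had enough UMIs, PGF was 2-fold higher and KDR, TEK and PLVAP 2-fold lower, against 6.03%. For KDR, TEK and PLVAP the levels there were 4.31 and 2.03, 2.92 and 0.751, and 20.9 and 6.57. At 3 months all 3 lay between the lower and higher free RNA levels. At 6 months all 3 lay above the lower levels of 0.324, 0.235 and 2.71, and KDR alone above the higher ones of 1.499, 1.09 and 12.5.

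The other classes had fewer of the 9 genes at 100 UMIs or more. In macrophage-like cells 4 genes were measured and PLVAP alone was 2-fold apart, against 9.54% of all genes. In lactotroph-like cells 5 were measured and ANGPT2 and PLVAP were 2-fold lower, against 6.82%. In somatotroph-like cells PGF and PLVAP were measured and PLVAP was 2-fold lower, against 2.35%. In T or NK-like cells VEGFA alone was measured, and it was 2-fold higher, against 14.7%. PLVAP stood at 8.01 and 2.23 CPM in lactotroph-like cells, below the lower free RNA levels of 16.6 and 2.71. Somatotroph-like cells had 17.4 and 3.32 of it, below the higher levels of 33.1 and 12.5. Class levels are on TMM sizes, with somatotroph factors of 0.927 and 1.08, whereas free RNA levels are on UMI totals. The 3-month value is close to the lower level of 16.6 and is lower on UMI totals, so it is not placed against it. At 6 months the value lay above the lower level. In macrophage-like cells PLVAP was above the higher levels, at 72.8 and 15.2. The part of free RNA in these calls was not tested.

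**Figure D4:**
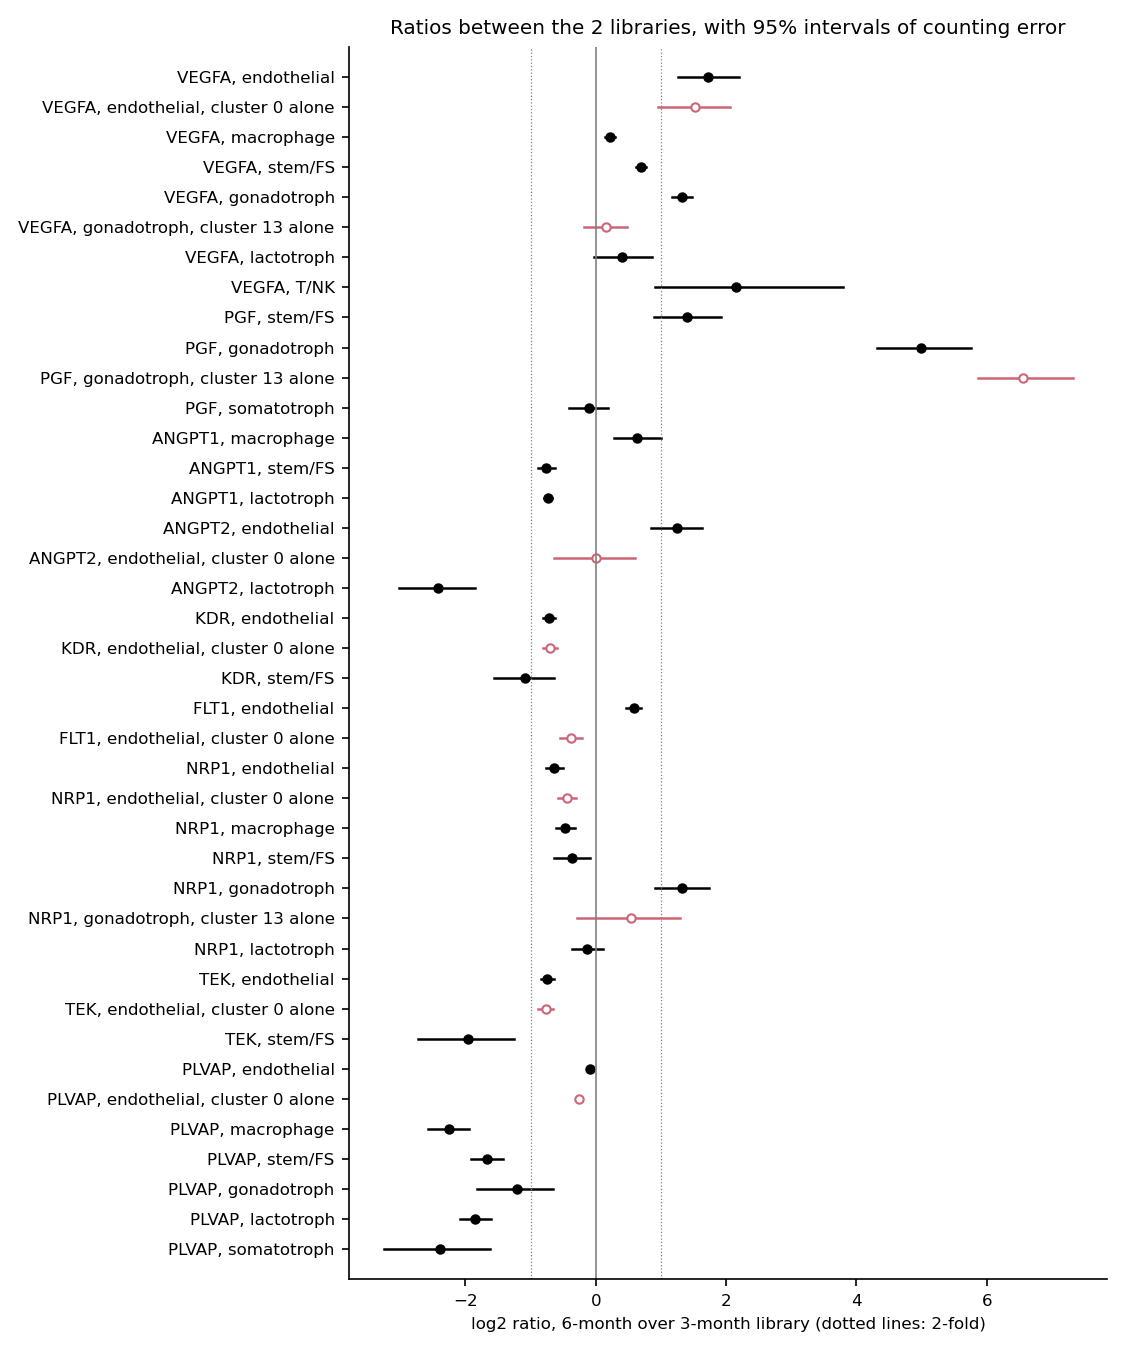
Log2 ratios of the 6-month over the 3-month library (x axis) with 95% intervals of counting error, for each gene and class with at least 100 UMIs (filled black points) and for cells of endothelial cluster 0 or gonadotroph cluster 13 alone (open red points). Dotted lines mark 2-fold. FLT1 is above 0 in the endothelial class and below 0 in cluster 0 alone, ANGPT2 is at 1.24 in the class and near 0 in cluster 0 alone, and PGF in gonadotrophs is the highest value.

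Within the endothelium the receptors were not evenly spread. Endothelial-like cells formed cluster 0, with 1871 cells at 3 months and 259 at 6 months, and cluster 26, with 3 and 176 cells. Cluster 26 was thus nearly a 6-month cluster and may be that library rather than a cell type. The name of each was supported by 12 endothelial markers, and the clustering did not use the 9 genes. In the 6-month library FLT1 stood at 938 CPM in cluster 26 and 236 in cluster 0, ANGPT2 at 110 and 20.8, and PLVAP at 6767 and 4843. NRP1 was the other way round, at 210 in cluster 26 and 350 in cluster 0. KDR, at 611 and 632, and TEK, at 484 and 456, were close in both clusters.

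Within cluster 0, which both libraries shared, KDR kept the ratio of the class and FLT1 and ANGPT2 did not. The ratios in this paragraph kept the TMM factors of the whole class, 1.01 and 0.987, while the levels are on UMI totals. KDR had a log2 ratio of -0.70 (-0.81 to -0.60), TEK of -0.77 (-0.89 to -0.65) and NRP1 of -0.44 (-0.58 to -0.30). FLT1 was lower at 6 months in these cells, at -0.38 (-0.55 to -0.21), opposite to the whole class. ANGPT2 had 21.3 and 20.8 CPM there, with an interval of the log2 ratio from -0.64 to 0.60, and its difference in the class was not seen in these cells. VEGFA was higher in cluster 0 alone too, at 1.52 (0.96 to 2.06), and PLVAP was at -0.26 (-0.30 to -0.22). In the finer division described next, cluster 0 was made mostly of different sub-clusters at each age. Sub-cluster 7 made up 188 of its 259 cells at 6 months and 0 at 3 months, and sub-cluster 0 made up 916 of its 1871 cells at 3 months and 2 at 6 months. Sub-cluster 2 held 720 and 29 cells. There KDR was at 1154 and 1307 CPM, a log2 ratio of 0.22 (-0.12 to 0.54). FLT1 had a log2 ratio of -0.0851 (-0.83 to 0.57) and TEK of -0.28 (-0.77 to 0.17), and these 3 intervals include 0. NRP1 was at 529 and 794, a log2 ratio of 0.63 (0.18 to 1.04), the other way from the class. These values, added after the data were seen, rested on 79, 19, 40 and 48 UMIs of the 4 genes at 6 months.

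A finer division of the endothelial-like cells gave 8 sub-clusters, 7 of which had at least 50 cells in 1 library. Sub-clusters 0 and 2, with 916 and 720 cells at 3 months, were led by interferon-response genes such as ISG15 and MX1 in the first and by genes such as DNASE1L3 and CLEC3B in the other. At 3 months, among sub-clusters of at least 50 cells, they had the highest KDR, 1101 and 1154 CPM, and the highest TEK, 919 and 826. Sub-cluster 4, with 72 cells at 3 months, was led by NID2, LUM and IGF1 and also by COL15A1 and CLDN5. Among the same sub-clusters it had the lowest FLT1, 71.1 (46.9 to 103), and the lowest TEK, 334 (279 to 398), and had ANGPT2 at 140 (105 to 183). Sub-clusters 1, 3 and 6, with 80, 62 and 18 cells at 3 months, were led by hormone genes, stem cell genes and C1Q genes of macrophages. Their part in the class values is given by leaving them out, which moved KDR to a log2 ratio of -0.61 and FLT1 to 0.67.

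At 6 months sub-clusters 5 and 7, with 191 and 189 cells, held most endothelial-like cells. Sub-cluster 5 was led by UPP1, KCNE3, MCAM and PLAT, and had FLT1 at 871 CPM (802 to 943) and ANGPT2 at 116 (91.9 to 144). Sub-cluster 7 was led by the chemokine genes CXCL9 and CXCL10, and had FLT1 at 264 (232 to 299.6), ANGPT2 at 10.7 (5.15 to 19.8) and KDR at 720 (667 to 777). Its NRP1, 391, was above the 233 of sub-cluster 5. High ANGPT2 was thus found in 1 sub-cluster of each library among those of at least 50 cells. At 6 months it went with the highest FLT1. At 3 months the group depended on the resolution. At resolution 1 the cells with the highest ANGPT2 were a group of 305 led by COL15A1 and LUM, with ANGPT2 at 79.7 CPM (63.3 to 99.0), FLT1 at 231 (203 to 263) and TEK at 578 (532 to 627), and the lowest FLT1, 189, was that of the group led by GH and PRL.

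**Figure D5:**
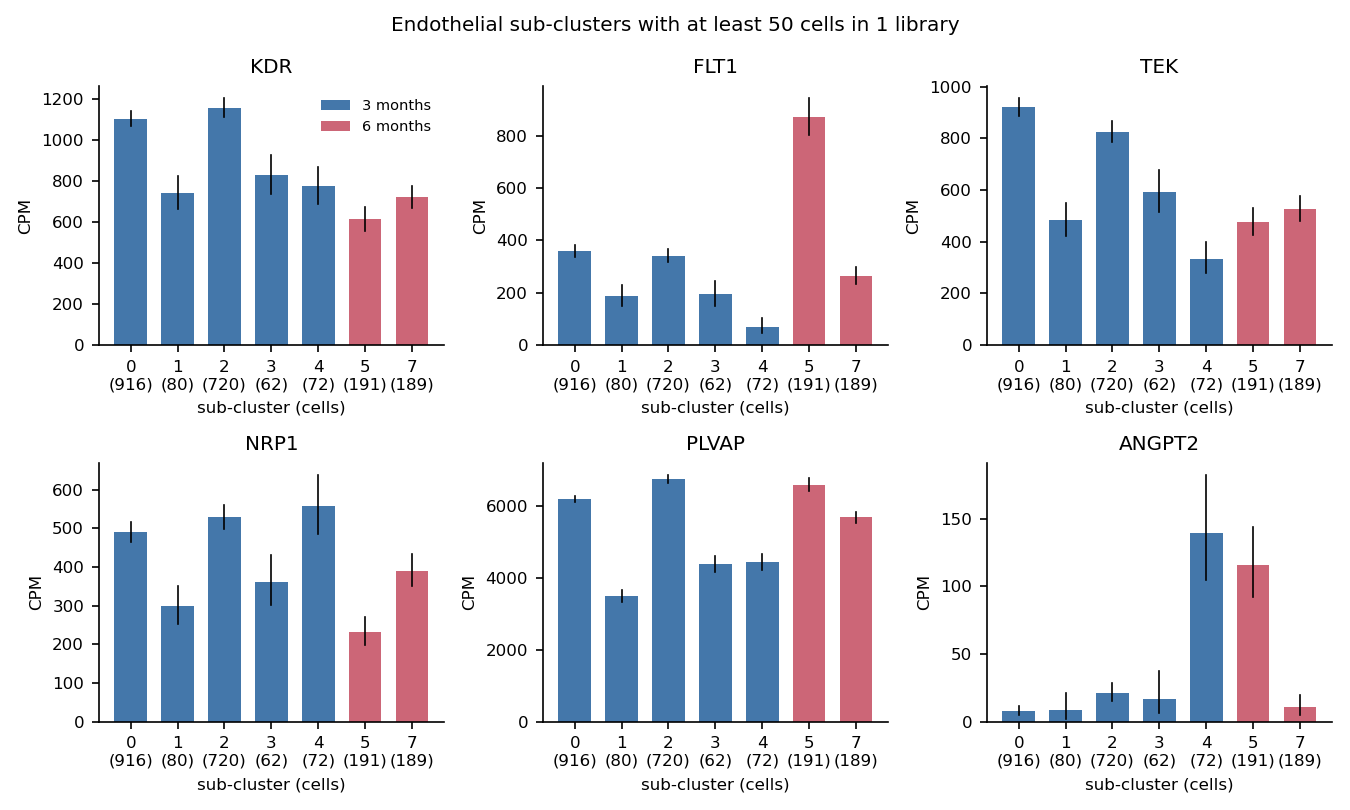
Levels of 5 vessel genes and ANGPT2 in CPM (y axes, linear from 0) in the endothelial sub-clusters with at least 50 cells in 1 library (x axis, cell numbers in brackets), blue for 3 months and red for 6 months, with 95% Poisson intervals. FLT1 peaks in sub-cluster 5, ANGPT2 is high in sub-clusters 4 and 5 alone, and PLVAP is between 3501 and 6770.

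Single cells mostly carried several receptors. After thinning to 2000 UMIs, 17.2% of endothelial-like cells at 3 months and 9.55% at 6 months had a UMI of all 4 receptors, and 2.25% and 6.74% had none. KDR and TEK were found together in 61.5% and 44.1% of cells. Of KDR-positive cells, 45.6% and 55.9% also had FLT1, against 34.4% and 45.8% of KDR-negative cells. At this depth a missing UMI does not show that a cell lacks the transcript. In macrophage-like cells at 3 months, 15.6% of cells with VEGFA also had NRP1, against 24.7% of cells without it. At 6 months these shares were 16.3% and 19.6%.

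Other genes of these pathways were read from 6 lists, fixed with earlier results of these data known. Of 11 relatives of the VEGF and angiopoietin systems, 8 had at least 100 UMIs in endothelial-like cells and 0 were 2-fold apart, against 6.14% of all genes of the class. PTPRB, a phosphatase that restrains TEK, stood at 930.5 and 647 CPM, a log2 ratio of -0.52 (-0.61 to -0.44), and TIE1, the partner of TEK, at 173 and 135. FLT4, the receptor for VEGFC, stood at 60.6 and 82.6. The median log2 ratio of the list was -0.11, against -0.06 for all genes of the class.

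Among 16 measured genes of other endothelial receptor systems, 2 were 2-fold higher and 0 lower, against 6.14%. DLL4, a Notch ligand of sprouting tips, stood at 41.9 and 103 CPM, a log2 ratio of 1.29 (1.02 to 1.56), and CXCR4, a chemokine receptor, at 8.66 and 24.1. Of 6 measured tip, artery and vein genes, 2 were higher and 1 lower, against 6.14%. ESM1, a secreted tip cell gene, stood at 42.7 and 115, a log2 ratio of 1.43 (1.17 to 1.69), and KCNE3 was at 7 and 75 UMIs, too few for the rule and named because it led sub-cluster 5. With both libraries pooled, ESM1 was at 243 CPM in sub-cluster 4 (72 and 1 cells) and 156 in sub-cluster 5 (6 and 191). It was at 76.6 in sub-cluster 2, 72.0 in sub-cluster 7 and 9.39 in sub-cluster 0 (916 and 2 cells). Its difference in the class, like those of the other genes of the 6 lists, was not separated from the mix of sub-clusters. ACKR1, a gene of venules, was higher, at 10.8 and 22.6, and SEMA3G, an arterial gene, was lower, at 14.4 and 6.16. The other measured genes of this list were under 2-fold. NR2F2 had a log2 ratio of -0.43 (-0.58 to -0.28), SELP of -0.29 (-0.56 to -0.02) and GJA4 of -0.21 (-0.73 to 0.29). GJA5 and BMX, further arterial genes, had 0 UMIs in these cells in both libraries. The medians of the receptor and tip lists were -0.14 and -0.25.

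The 8 measured fenestration, caveola and barrier genes included 0 that were 2-fold apart, against 6.14% of all genes, with a median of -0.20. CAV1 and CAV2, which build caveolae, were at 96.5 and 60.0 and at 251 and 153 CPM. CA4 had 0 UMIs, and MFSD2A, a gene of the blood-brain barrier, had 2 and 0. Of 10 measured hypoxia response genes, DDIT4 was higher, at 211 and 422 with a log2 ratio of 1.00 (0.88 to 1.13), and the median was 0.14. The DDIT4 value lies at the 2-fold cut-off, and its interval reaches below it. DDIT4 was the 1 gene of that list that was 2-fold apart, and THBS1 the 1 of the next, against 6.14%. Of 4 measured extracellular inhibitors, THBS1, which restrains vessel growth, was higher, at 342 and 742, a log2 ratio of 1.12 (1.02 to 1.21), and the median was -0.09.

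THBS1 was also higher at 6 months in macrophage-like and gonadotroph-like cells. It stood at 36.8 and 601 CPM in macrophage-like cells, a log2 ratio of 4.03 (3.83 to 4.24), and at 1.95 and 41.5 in gonadotroph-like cells, 4.41 (3.83 to 5.03). In macrophage-like cells EGLN3 and LDHA of the 12 measured hypoxia genes were also 2-fold higher, against 9.54% of all genes, with log2 ratios of 2.49 and 1.154, and the list's median was 0.28, against 0.06 for all genes. NRP2, the other neuropilin, was at 54.8 and 121 CPM there. In gonadotroph-like cells 0 of 11 measured hypoxia genes were 2-fold higher and ANKRD37 and CA9 were 2-fold lower, against 9.31% of all genes, with a median of -0.29, and ESM1 was at 25.4 and 180. In stem or folliculostellate-like cells ADM, the vasodilator adrenomedullin, was at 5.79 and 23.3, and NDRG1 of the 14 measured hypoxia genes was 2-fold higher, against 6.03% of all genes. Each of these classes was made mostly of different clusters at each age, and the part of that mix in these differences was not tested.

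Across 17 class-by-library groups of at least 50 cells, the genes with the pattern most like each of the 9 were found by Pearson's r of log2 levels over 15017 genes. KDR, TEK and PLVAP had endothelial genes nearest, CAVIN2 at 0.98 for KDR, CAVIN2 and ERG at 0.99 for TEK, and RAMP2 at 0.99 for PLVAP. FLT1 was nearest to LOC101102047 at 0.99, a gene that led cluster 26, and to BCL6B at 0.98. Among the 9 genes themselves KDR and TEK had r = 0.98, and KDR and NRP1 0.77. NRP1 was nearest to DISC1 at 0.94. ANGPT2 was nearest to FGD5, at 0.94, VEGFA to CALR at 0.90, ANGPT1 to TLE4 at 0.83 and PGF to TRNP1 at 0.80. The groups share 2 libraries and their depth, so these values are descriptions.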

How the data were processed

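The deposited matrices hold raw UMI counts, 1 matrix per library, with no normalization by the authors. The gene and barcode lists deposited with them hold other, non-numeric entries. The counting tool was Cell Ranger, version 5.0.0 in the submitters' processing notes and 5.0.1 per the file headers. The genome build is not given in the sources used here, so no coordinates or sequences are printed.

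The cell filter asked for at least 500 genes and at least 1000 UMIs. Scrublet in scanpy 1.11.5 removed 922 (5.63%) and 570 (4.30%) doublets per library. Clustering used log-transformed counts on a scale of 10000 per cell and the 3000 most variable genes, without hormone, ribosomal and mitochondrial genes, the 9 genes and the 6 lists, then 30 principal components, 15 neighbours and the Leiden method (resolution 1, 5 iterations, seed 1), and gave 30 clusters. A cluster was named when at least 3 markers of a class were 1.5-fold above the mean of the other clusters (pseudocount 10 CPM) and in at least 10% of its cells, with no other class better supported. A hormone class also needed its hormone gene 2-fold higher and in 50% of cells. This rule was the second version, written after the clusters were seen. In all 6 clusters stayed unnamed, among them the stromal one, cluster 24. Endothelial-like cells were divided again at resolution 0.5.

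Levels are summed counts as CPM on edgeR 4.0.16 TMM sizes for classes of at least 50 cells in each library, and on UMI totals for other classes, clusters and sub-clusters. Ratios within part of a class, such as 1 cluster or sub-cluster, kept the TMM factors of the whole class. A gene was measured with 100 summed UMIs and called with a 2-fold difference. Shares and ratios have exact Clopper-Pearson and conditional binomial intervals, levels exact Poisson intervals, all at 95%. They treat the UMIs of a class as independent and so omit the spread from cell to cell. The free RNA level of a gene is its level over all cells times the free RNA share, on UMI totals without TMM factors. A count of 0 allows up to 3 counts. The named genes are all 9 genes, the 3 genes most like each, of which some are given, and the list genes at least 2-fold apart in endothelial-like cells. Genes given for other classes, those under 2-fold and KCNE3 were added after their values were seen. The 9 genes and the lists were chosen with earlier results of these data known. The replicate unit was the library, 1 per age.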

Additional observations from a re-analysis of the deposited data

Results flagged for a closer look

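ANGPT2 differed at least 2-fold in opposite directions in 2 classes. Its log2 ratio of the 6-month over the 3-month library was 1.24 in endothelial-like cells and -2.43 in lactotroph-like cells, a gap of 3.67, and the difference was not tested. The endothelial value rested on 136 and 97 UMIs and the lactotroph value on 84 and 38. In endothelial cluster 0 alone, without the cluster found nearly only at 6 months, it was 7.08e-04 (-0.64 to 0.60), from 136 and 28 UMIs. Both main lactotroph clusters of the 6-month library, 15 and 20, had low levels, 0.464 and 0.169 CPM, against 1.86 in cluster 8 at 3 months.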

How the results depend on the processing

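No paired analysis was possible because each age had 1 library. PGF in gonadotroph-like cells kept a log2 ratio of 5.00 within its interval under the other scalings, cell filters, clusterings and free RNA shares. It was 6.54 without cluster 27 and 6.55 in cluster 13 alone, choices added after seeing the data. VEGFA in these cells, 1.32, was 1.151 on UMI totals, 0.17 without cluster 27 and 0.16 in cluster 13 alone. The values without cluster 27 and in cluster 13 kept the TMM factors of the whole class. In endothelial-like cells KDR, -0.72, was -0.62 as a mean of per-cell CPM, -0.59 under the stricter cell filter and -0.61 without the sub-clusters led by genes of other classes. FLT1, 0.58, was 0.71 as a mean of per-cell CPM and -0.38, reversed, in cluster 0 alone, and ANGPT2, 1.24, was 7.08e-04 there. In sub-cluster 2 alone, with 29 cells at 6 months, KDR was 0.22, FLT1 -0.0851 and NRP1 0.63, all reversed, and ANGPT2 0.68. The causes of these shifts were not tested. PLVAP, -0.09, turned to 0.0173 under the stricter filter, and PGF in somatotroph-like cells, -0.11, to 0.11 on UMI totals and 0.0776 on totals without hormone genes.

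The share of VEGFA UMIs in macrophage-like and stem or folliculostellate-like cells, 81.2% at 3 months, was 83.8% with free RNA subtracted and 83.0% with the lower free RNA share, 80.1% and 79.9% under the looser and stricter filters, 76.3% with doublets kept and 79.7% at resolution 2. At 6 months, 80.3%, it was 83.8% and 82.6% on the same settings, 76.2% under the stricter filter, 77.2% with doublets kept and 78.8% at resolution 0.5. The share of ANGPT1 UMIs in lactotroph-like cells, 62.9% at 3 months, was 65.8% and 64.4% on them, 60.9% and 65.5% under the looser and stricter filters, 60.8% with doublets kept, 65.0% at resolution 0.5 and 65.04% with the 9 genes and lists kept in the clustering. At 6 months, 79.4%, it was 82.9% with free RNA subtracted, 76.1% with doublets kept, 80.4% at resolution 0.5 and 81.5% with the genes kept.

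Genes at least 2-fold apart in endothelial-like cells numbered 481, and 1236 and 2093 with minimums of 20 and 1 UMIs. The same minimums gave 1937 and 3962 against 552 in T or NK-like, 1737 and 2487 against 897 in gonadotroph-like, 1557 and 2224 against 822 in lactotroph-like, 1735 and 2771 against 796 in macrophage-like, 743 and 1464 against 205 in somatotroph-like and 1395 and 2114 against 760 in stem or folliculostellate-like cells. For somatotroph-like cells the mean of per-cell CPM gave 340 and subtraction of free RNA 319. On UMI totals the part of these genes that was higher at 6 months moved from 87.0% to 57.1% in T or NK-like, 41.0% to 23.9% in gonadotroph-like, 40.6% to 56.9% in lactotroph-like and 22.0% to 53.2% in somatotroph-like cells. As a mean of per-cell CPM these parts were 49.6%, 29.8%, 66.8% and 58.2%, and on totals without hormone genes they were 62.3% in T or NK-like and 46.3% in somatotroph-like cells. Of 270 alternative values of log2 ratios, 224 stayed within the interval, 39 moved and 7 reversed. Of the shares of UMIs 67 of 176 moved, of the levels 49 of 176, and of the shares of cells with a UMI, which change with the thinning depth, 49 of 54. Of the sub-cluster extremes 3 of 24 moved at resolution 1. Depth limits PGF and ANGPT2 most, with 189 to 690 UMIs of each gene per library.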
